A study of Homo sapiens with 12 samples.

Results

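The group examined here was made up of 10 genes that encode proteins that take up glucose or carry it through glycolysis to lactate. They were SLC2A1, HK1, HK2, PFKP, PFKFB3, ALDOA, GAPDH, PGK1, PKM and LDHA, chosen by name from 20090 protein-coding genes and not by any measured value. For each gene, called regions were taken where they overlapped a promoter window (1000 bp before to 100 bp past any transcript start in the annotation), and where they lay within 10 kb of the gene. The regions came from chromatin immunoprecipitation sequencing of HCC70 cells, a line of triple-negative breast cancer, grown with vehicle or with XY018 for 24 h. XY018 is an antagonist compound that acts on the nuclear receptor RORγ, given as 5 µM in the sample labels and at a lower dose in the methods of the study. Antibodies were directed against the sterol-responsive transcription factor SREBP2, against RORγ and against H3K27ac, the histone acetylation found at active promoters and enhancers. Each antibody was used on 1 vehicle and 1 XY018 library, so no difference below has a replicate check and no p-value was computed. The 6 input libraries were not used here. All cells came from this 1 line.

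Glycolysis begins with glucose entering the cell through facilitative carriers and being trapped by hexokinases, and it commits carbon at the phosphofructokinase step. Its later enzymes release energy as ATP and end in pyruvate, which lactate dehydrogenase reduces to lactate. Tumour cells, those of triple-negative breast cancer among them, often run this pathway at a high rate even with oxygen present. SREBP2 is best known for switching on the genes of cholesterol synthesis and uptake, and RORγ for its T-cell isoform. The comparison with the antagonist asked how SREBP2, RORγ and H3K27ac at the glycolysis genes differed between the treatments in the same cells.

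Depth estimated from the deposited peak values was 5.56 tags per kb of mappable genome in the SREBP2 vehicle library and 5.92 in the SREBP2 XY018 library, and between 3.65 and 6.16 in the other 4 libraries. Their lists held 117441 and 69700 regions for SREBP2, 167264 and 129954 for RORγ, and 95099 and 105371 for H3K27ac, with vehicle first. Levels are given as the number of sequenced fragments that cover the summit of a region. The XY018 to vehicle ratio compares these numbers after each was divided by the genome-wide background of its library, and its 95% interval is exact and covers counting error only. As a check of the cell line, H3K27ac lay at the promoters of the epithelial genes CDH1, KRT8 and KRT18, of EGFR, and of the basal keratins KRT5 and KRT17 in both libraries. The KRT17 region was weak, with 8 fragments with vehicle and 18 with XY018. No H3K27ac region was listed at the basal keratin KRT14, the progesterone receptor PGR, the leukocyte genes PTPRC and CD3E or the fibroblast gene COL1A2, whereas the estrogen receptor gene ESR1 had a region of 10 fragments with vehicle and 13 with XY018.

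Sequences of 4 promoters show the bases near the starts of these genes that lay in SREBP2 regions. Each was read from GRCh37, the build called hg19, 5′ to 3′ along the gene's own strand, and for the first 3 it is the 100 bases before the principal start, the start of the transcript that the annotation ranks first. SLC2A1 and ALDOA are shown because SREBP2 in the region over the stretch was lower with XY018 by at least 1.5 times. HK2 is shown as a promoter with 2 regions, and its stretch lies in the upstream one (21 and 20 fragments), not in the stronger one past the start that was lower by that factor. LDHA is shown because its promoter was the 1 among the 10 without RORγ. Capitals mark the GC box (GGGCGG), which SP factors bind, the NF-Y box (CCAAT) and the core that hypoxia-inducible factors (HIF) bind (ACGTG or GCGTG), on either strand. In the LDHA stretch of 30 bases they mark an E-box (CACGTG), which itself holds the HIF core on both strands, and a further HIF core.
SLC2A1 promoter, chr1:43424540-43424639, minus strand: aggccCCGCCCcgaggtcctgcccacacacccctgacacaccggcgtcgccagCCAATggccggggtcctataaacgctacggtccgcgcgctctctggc
HK2 promoter, chr2:75061154-75061253, plus strand: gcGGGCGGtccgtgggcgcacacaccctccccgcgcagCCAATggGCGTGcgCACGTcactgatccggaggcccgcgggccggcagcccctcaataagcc
ALDOA promoter, chr16:30076981-30077080, plus strand: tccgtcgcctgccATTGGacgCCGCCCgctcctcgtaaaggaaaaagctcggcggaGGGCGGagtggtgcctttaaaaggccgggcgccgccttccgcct
LDHA promoter, chr11:18416013-18416042, plus strand: gcccgactcaCACGTGggttcccgCACGTc

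Over the 300 bases from 250 before to 50 after the principal start, all 10 promoters held at least 1 HIF core, which 56.4% of 20086 promoters of the same length also held. GC boxes stood in 8 of the 10, LDHA not among them, against 61.0% of all promoters, and PFKP had 6. The NF-Y box was present in 7 of the 10 and in 35.9% of all, and PFKFB3 and LDHA were among those without it. E-boxes were found at LDHA, at positions −185 and −87 from the principal start, and at PFKFB3, at −108, and in 8.73% of all promoters. None of the 10 windows held the SRE of SREBP factors (TCACNCCAC), present in 1.21% of all promoters, or the RORE core of ROR receptors, present in 0.433%. These letter matches describe the windows only. The median GC content was 70.8% over the 10 windows and 63.7% over all promoters.

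With vehicle, SREBP2 regions lay in the promoters of all 10 genes, as they did in 70.6% of all protein-coding genes. With XY018 they lay in 9 of the 10, beside 62.7% of all genes, and LDHA was the gene without one. RORγ regions lay in 9 of the 10 promoters with vehicle, beside 62.7% of all genes, and in the same 9 with XY018, beside 61.5%. H3K27ac marked all 10 promoters in both libraries, where the shares over all genes were 66.8% and 68.0%. Both factors were found at 9 of the 10 genes under each treatment, against 60.3% of all genes with vehicle and 57.5% with XY018. The counts of members were at or above every one of these shares, a description of 10 genes without a test. The plot of promoter fragments shows the levels by library.

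**Figure D1:**
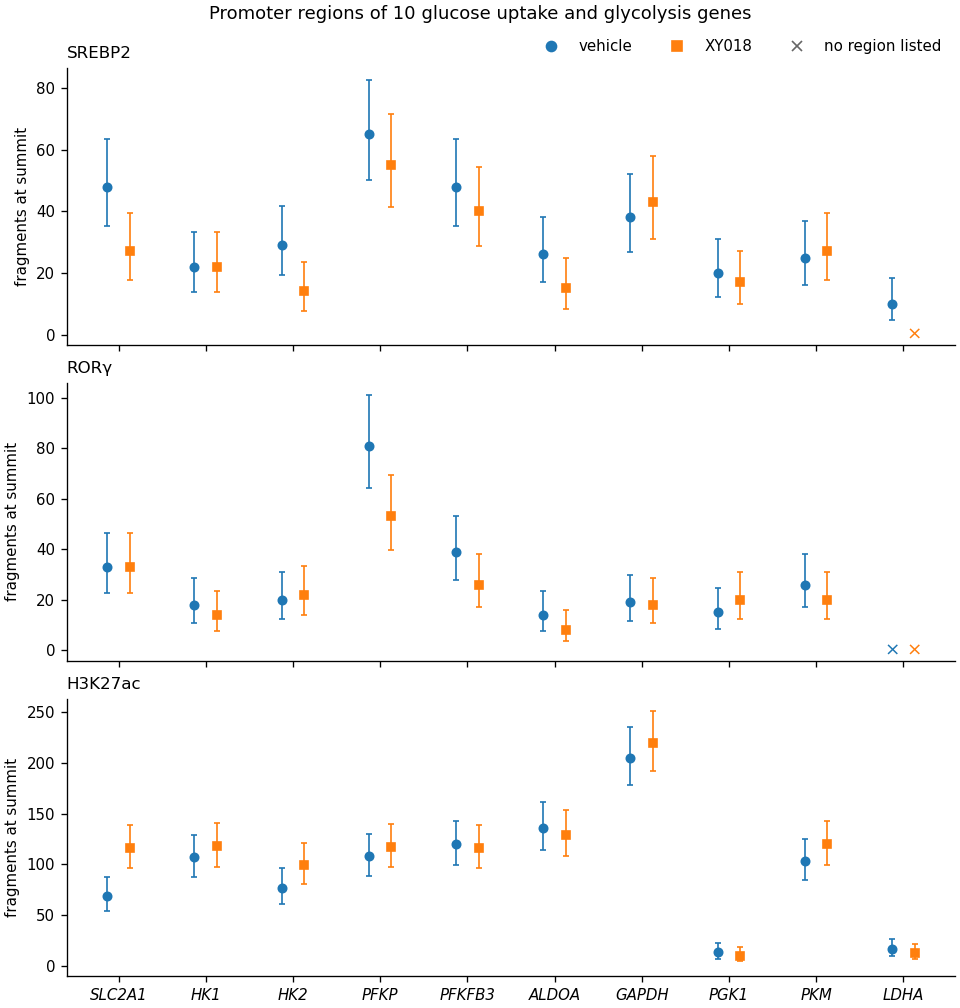
Fragments at the promoter summit (y axis) of each of the 10 genes (x axis) in the vehicle (circles) and XY018 (squares) library of each antibody, with exact Poisson 95% intervals; crosses mark promoters without a listed region. SREBP2 stood at 48 and 27 fragments at SLC2A1 and at 38 and 43 at GAPDH, and H3K27ac at SLC2A1 stood at 69 and 116.

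SLC2A1 encodes the glucose carrier that many tumours rely on. Its SREBP2 promoter region, at chr1:43423462-43424823 with vehicle, had 48 fragments with vehicle and 27 with XY018. The RORγ region over the same start had 33 fragments in each library, and H3K27ac had 69 with vehicle and 116 with XY018. The SREBP2 ratio was 0.476 (95% interval 0.286 to 0.778), the RORγ ratio 1.11 (0.661 to 1.85) and the H3K27ac ratio 1.84 (1.36 to 2.52). At this promoter the intervals of SREBP2 and H3K27ac therefore lay on opposite sides of 1, and that of RORγ spanned it. The vehicle SREBP2 summit lay in the first part of the gene at +454, within an intron, and the XY018 summit at −142. The SREBP2 ratio here therefore compares different points of the region.

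Hexokinases trap glucose in the cell by phosphorylating it, HK1 being the widespread form and HK2 the form often raised in tumours. At HK1, SREBP2 had 22 fragments in each library, RORγ 18 with vehicle and 14 with XY018, and H3K27ac 107 and 118. No HK1 interval excluded a ratio of 1. HK2 had a pair of SREBP2 regions near its start. The one with its summit at +679, in an intron, had 29 fragments with vehicle and 14 with XY018, a ratio of 0.409 (0.2 to 0.799), while the one at −217 had 21 and 20, a ratio of 0.806 (0.415 to 1.56). At +679 the SREBP2 region overlapped RORγ regions of 20 and 22 fragments, and H3K27ac there had 77 and 99, a ratio of 1.41 (1.04 to 1.92). At the upstream HK2 region RORγ had only 11 fragments with vehicle and 4 with XY018. The intervals of the SREBP2 ratios at both HK2 regions overlapped, and their difference was not tested.

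PFKP, the platelet-type phosphofructokinase, catalyses the committed step. It had the highest SREBP2 and RORγ promoter levels of the 10. SREBP2 had 65 fragments with vehicle and 55 with XY018, a ratio of 0.716 (0.491 to 1.04). RORγ had 81 and 53, a ratio of 0.724 (0.502 to 1.04), and H3K27ac had 108 and 117, a ratio of 1.19 (0.906 to 1.56). The vehicle level of SREBP2 lay at percentile 95.7 of all promoters with a region, and that of RORγ at percentile 97.7. The summit sequence of this strongest SREBP2 promoter region is printed with those of other strong regions further on.

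PFKFB3 makes the allosteric activator of phosphofructokinase. Its strongest SREBP2 promoter region had 48 fragments with vehicle and 40 with XY018, a ratio of 0.705 (0.452 to 1.1), and its strongest RORγ region 39 and 26, a ratio of 0.737 (0.431 to 1.24). H3K27ac had 120 and 116, a ratio of 1.06 (0.813 to 1.38). These values came from different starts of the gene, which spans 110 kb, and each start is described on its own below.

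ALDOA, the aldolase of muscle and of most dividing cells, had 26 SREBP2 fragments with vehicle and 15 with XY018, a ratio of 0.488 (0.24 to 0.957). RORγ had 14 and 8, and its ratio of 0.632 (0.23 to 1.61) passed the 1.5-fold limit while its interval spanned 1. H3K27ac had 136 and 129, a ratio of 1.04 (0.81 to 1.33). At ALDOA both factors thus had ratios past the limit, with an interval that excluded 1 for SREBP2 alone. The SREBP2 summits lay apart, at −558 with vehicle and +123 with XY018, so the SREBP2 ratio compares different points of the region.

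GAPDH, which oxidises glyceraldehyde phosphate, had the highest H3K27ac level of the 10, 205 fragments with vehicle and 220 with XY018. Its SREBP2 region, at chr12:6643693-6644368 with vehicle, had 38 fragments with vehicle and 43 with XY018, and its RORγ region 19 and 18. The SREBP2 ratio of 0.958 (0.605 to 1.52) was the highest among the member genes in this scaling and lay at percentile 97.0 of all genes with a pair. It was 1.06 when scaled by tags per kb and 1.05 by the deposited fold enrichment, so its direction was not fixed.

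PGK1, which makes the first ATP of the pathway, had 20 vehicle and 17 XY018 fragments of SREBP2. RORγ had 15 and 20, and both intervals spanned 1. H3K27ac was low there in both libraries, 13 and 10 fragments, at percentile 5.89 of marked promoters with vehicle. PKM, whose transcripts give both common pyruvate kinases of dividing and of muscle cells, had its strongest SREBP2 region at +978, with 25 fragments with vehicle and 27 with XY018, a ratio of 0.914 (0.511 to 1.64) that became 1.01 when scaled by tags and 1.55 by the deposited fold enrichment. A further PKM region at +163 had 22 and 14, a ratio of 0.539 (0.255 to 1.1). RORγ at the stronger region had 26 and 20 fragments, and H3K27ac 103 and 120.

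LDHA, the lactate dehydrogenase subunit that favours lactate, had the weakest SREBP2 region of the 10, with 10 fragments (95% interval 4.8 to 18.4) at +65 with vehicle and no region with XY018. No RORγ region lay in its promoter in either library. H3K27ac had 16 and 12 fragments. The smallest summit listed anywhere in the SREBP2 lists had 4 fragments, and a level under the calling limit cannot be told from none in these lists.

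Across the 9 genes with a pair, the SREBP2 ratio ran from 0.409 at HK2 to 0.958 at GAPDH, with a median of 0.716. All 9 ratios were below 1, and so were 12083 of 12332 among all genes, whose median was 0.621. This common direction did not hold by the deposited fold enrichment, which gave ratios of 1.55 at PKM and 1.05 at both GAPDH and PGK1. SREBP2 was lower by at least 1.5 times at 3 of the 9 (SLC2A1, HK2 and ALDOA) and at 62.2% of all genes, and higher by that factor at none of the 9 and at 0.0568% of all genes. By the deposited fold enrichment the genes past the limit changed: SLC2A1 stood at 0.677 and no longer passed it, HK1 (0.603), PFKP (0.548) and PFKFB3 (0.629) were lower by at least 1.5 times beside HK2 (0.394) and ALDOA (0.305), and PKM was higher. With the background scaling at the principal start only, HK2 (0.806) was not past the limit and PKM (0.539) was. With that scaling and all starts, the intervals of SLC2A1, HK2 and ALDOA excluded 1, and no interval excluded the median of all genes. Divided by that median, the ratios ran from 0.658 at HK2 to 1.54 at GAPDH, and 3 of the 9 lay below it. The median ratio of the group thus lay nearer to 1 than that of promoters in general, a difference that was not tested.

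RORγ at the same promoters showed no common direction, with 5 of 9 ratios below 1, beside 6253 of 11303 among all genes. The median RORγ ratio was 0.86 beside 0.968 for all genes. It was lower by at least 1.5 times at 1 of the 9 (ALDOA), against 9.53% of all genes, and higher at none, against 7.31%. No RORγ interval excluded 1. By the deposited fold enrichment RORγ also passed that limit at PFKP (0.637) and PFKFB3 (0.539), and upward at HK2 (1.68), while SLC2A1 stood at 0.911 and GAPDH at 0.992. H3K27ac ratios were above 1 at 8 of the 10 genes, as they were at 10356 of 12879 among all genes. The median over the 10 was 1.18 beside 1.27 for all genes. By contrast, the deposited fold enrichment gave ratios of 0.814 at PFKP and 0.708 at PFKFB3, and 1.53 at ALDOA. With 1 pair compared per gene, SLC2A1 was the 1 gene higher by at least 1.5 times, a call made at 22.6% of all genes. None was lower, against 3.08%. Other H3K27ac promoter pairs of these genes passed the limit, among them those of PFKFB3 at −58175 (1.64) and +20096 (0.351). The interval of SLC2A1 excluded the median of all genes, and its H3K27ac ratio lay at percentile 94.9.

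**Figure D2:**
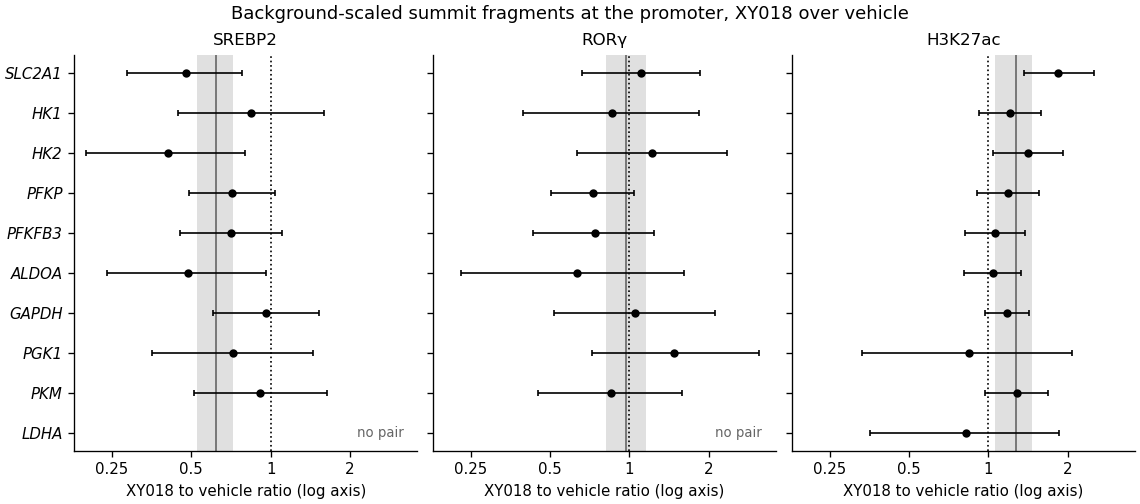
XY018 to vehicle ratio of background-scaled promoter fragments (log axis) for the 10 genes and each antibody; bars are exact 95% intervals, the solid line and grey band are the median and interquartile range of all protein-coding genes, and the dotted line marks a ratio of 1. For SREBP2 all 9 points lie below 1 around the all-gene median of 0.621, and for H3K27ac SLC2A1 stands at 1.84.

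Other genes of the pathway, a list of 30 transporters, isoenzymes, remaining steps and exits of pyruvate and lactate, gave a like picture. SREBP2 regions lay in 25 of the 30 promoters with vehicle and 23 with XY018. Among 22 genes with a pair, SREBP2 was lower by at least 1.5 times at 9, higher at none, and the median ratio was 0.671. The lowest ratios were those of SLC16A1, a lactate carrier, which had 36 fragments with vehicle and 19 with XY018 (0.447, interval 0.242 to 0.8), and of PDHB, a subunit of pyruvate dehydrogenase, which had 15 and 8 (0.451, 0.166 to 1.13). The highest were those of PGAM1, a phosphoglycerate mutase, with 11 fragments in each library (0.846), and of ENO3, an enolase of muscle, with 24 and 23 (0.811). RORγ was lower by at least 1.5 times at 1 of 22 genes with a pair (TPI1, 0.573) and higher at 2 (PDK1, 1.72, and PDHA1, 1.57), and H3K27ac was higher at 3 of 21 (SLC2A8, 1.7, GPI, 1.63, and PDK1, 1.58) and lower at none. These 5 genes were named after their values were seen. For the 21 genes of cholesterol synthesis, the pathway with which the study is concerned, 17 had a pair. Their median SREBP2 ratio was 0.597, with 12 of the 17 lower by at least 1.5 times. Over all genes with a pair the median was 0.621, and 62.2% were lower by that factor.

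Promoters included, the windows around the 10 genes contained 88 vehicle and 53 XY018 regions of SREBP2, 78 and 76 of RORγ, and 164 and 181 of H3K27ac. Kept regions were those that shared at least 1 bp with a region of the same antibody in the XY018 list. Of the SREBP2 regions 43 were kept, or 48.9% (exact 95% interval 38.1 to 59.8), against 39.8% of all SREBP2 regions. The kept share was 43.6% (32.4 to 55.3) for RORγ, against 36.4% of all its regions, and 72.0% (64.4 to 78.7) for H3K27ac, against 69.3%. Each interval contained the share over all regions of its antibody. These intervals treat regions as independent, also those of the same gene, and do not measure spread between replicates. By place, SREBP2 kept 19 of 27 regions at the genes' own promoters, 5 of 7 at promoters of neighbouring genes and 19 of 54 elsewhere. PFKFB3 with 27 vehicle regions and PFKP with 25 held most of the SREBP2 regions, whereas LDHA had 1.

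Whether the regions of both factors coincided went with being kept. Where SREBP2 and RORγ overlapped in these windows, 33 of 41 SREBP2 regions were kept (80.5%, interval 65.1 to 91.2), and where RORγ was absent 10 of 47 (21.3%, 10.7 to 35.7). The former were also stronger, with a median of 25 fragments against 9, and the part of this difference in the kept share was not tested. Over all SREBP2 regions the shares were 69.1% and 11.6%, with medians of 20 and 8 fragments. From the side of RORγ, 33 of 41 regions that overlapped SREBP2 were kept (80.5%), and 1 of 37 that did not (2.7%, interval 0.0684 to 14.2). Over all RORγ regions the shares were 76.0% and 15.4%. The RORγ regions with SREBP2 in the gene windows were also stronger, with a median of 14 fragments against 6. The part of this in the kept share was not tested. Overlap with H3K27ac went with being kept too. In these windows 69.6% of SREBP2 regions with H3K27ac were kept and 26.2% of those without, beside 75.9% and 26.2% over all SREBP2 regions. For RORγ regions these shares were 69.2% and 17.9%, beside 81.2% and 27.4% over all RORγ regions. Regions with H3K27ac in the gene windows were also stronger, with medians of 24 against 9 fragments for SREBP2 and 14 against 6 for RORγ. The part of strength in these kept shares was not tested.

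**Figure D3:**
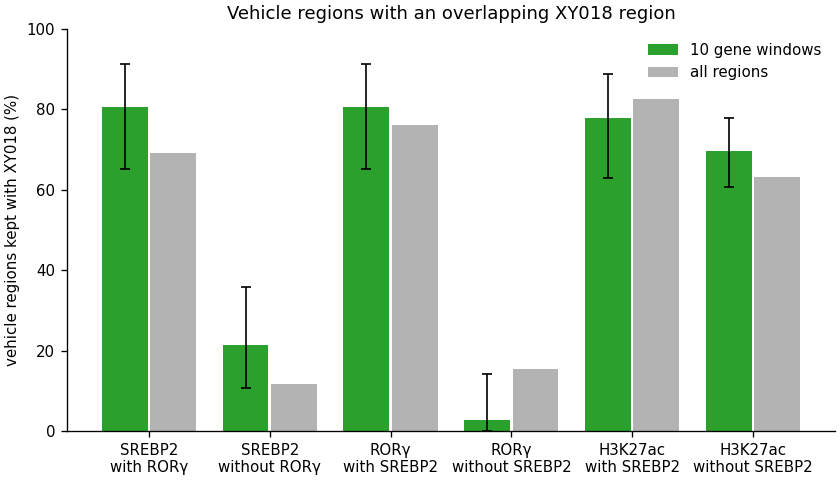
Share of vehicle regions with an overlapping XY018 region of the same antibody (y axis, %) for regions with and without the named partner, in the windows of the 10 genes (green, with exact 95% intervals) and over all regions (grey). SREBP2 regions with RORγ were kept at 80.5% and those without at 21.3% in the gene windows.

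The sequence within 30 bases of the SREBP2 summit with vehicle is given for the strong regions that the following paragraphs describe. The set adds the PFKP promoter to the distal regions with the highest SREBP2 level. Each line is read along the strand of the named gene, and capitals mark GC boxes on either strand.
PFKP at −157, upstream, chr10:3109553-3109613, plus strand: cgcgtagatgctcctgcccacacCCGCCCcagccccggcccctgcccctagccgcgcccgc
PFKFB3 at −1384, upstream, chr10:6243481-6243541, plus strand: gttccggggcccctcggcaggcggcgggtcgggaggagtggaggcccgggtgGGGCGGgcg
PFKFB3 at +12480, intron, chr10:6257345-6257405, plus strand: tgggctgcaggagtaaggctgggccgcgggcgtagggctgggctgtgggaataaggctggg
SLC2A1 at +41756, downstream, chr1:43382753-43382813, minus strand: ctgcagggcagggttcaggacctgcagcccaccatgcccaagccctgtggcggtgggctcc

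In the 201 bases around the summit, 34 of the 88 vehicle SREBP2 regions of these windows held a GC box (38.6%), against 30.1% of all SREBP2 regions, and 11 held an E-box (12.5%), against 4.72%. An SRE was present in 2 of the 88 (2.27%), against 2.42% of all. These 2 were weak regions, of 7 fragments at +37679 of SLC2A1 and of 8 at −48109 of PFKFB3, and neither was kept.

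PFKFB3 had the most varied landscape. Upstream of its principal start, with summits at −57895 and −39262, at other annotated starts, SREBP2 had 48 and 38 fragments with vehicle and 40 and 27 with XY018. At the principal start it had 39 and 31, and in the downstream cluster of starts, at +17904, 41 and 25, a ratio of 0.516 (0.301 to 0.869). All 4 of these starts had RORγ regions too, of 35, 38, 39 and 25 fragments with vehicle and 23, 23, 26 and 22 with XY018. The lowest SREBP2 ratios in the gene lay further along its body, 0.385 (0.163 to 0.847) at +28964 and 0.326 (0.14 to 0.698) at +29736, and no RORγ region overlapped either with vehicle, whereas with XY018 RORγ regions of 8 and 10 fragments overlapped them.

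H3K27ac at PFKFB3 differed by position. It was higher with XY018 at −58175, where it had 94 fragments with vehicle and 141 with XY018 (ratio 1.64, 1.26 to 2.16), at −1436, with 101 and 159 (1.72, 1.34 to 2.24), and at +1135, with 82 and 108 (1.44, 1.07 to 1.95). Within the gene it was lower at +12481, with 77 and 46 (0.655, 0.444 to 0.955), and at +20096, with 53 and 17 (0.351, 0.191 to 0.617). Between these, at +17895, it had 55 and 39 (0.777, 0.502 to 1.19), and the region at −38768 stood at 120 and 116. Among the 16 one-to-one pairs of the PFKFB3 window, the interval lay above 1 in 3 and below 1 in 2. These regions were picked by their values, and a difference by position was not tested. Over all H3K27ac region pairs 15.0% were higher by at least 1.5 times and 5.52% lower, and in the PFKFB3 window 5 and 2 of 16 pairs were. The median ratio over all H3K27ac pairs was 1.1.

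**Figure D4:**
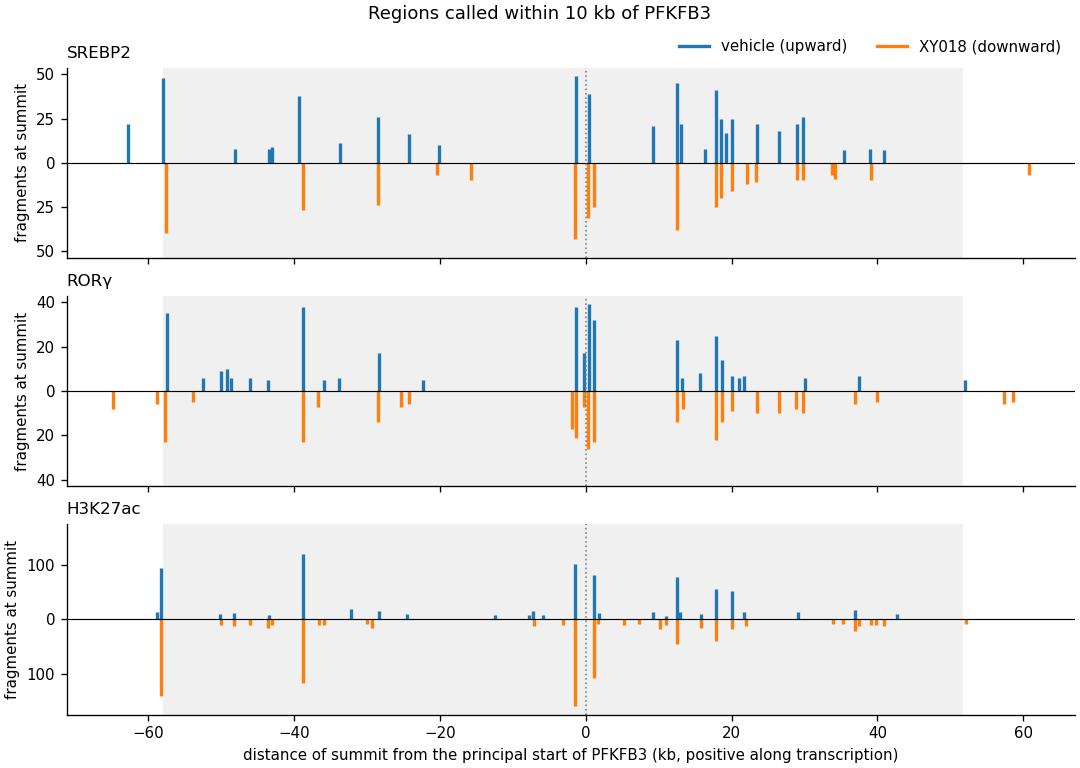
Fragments at the summit of each region within 10 kb of PFKFB3, by distance from the principal start (x axis, kb); vehicle is drawn upward and XY018 downward, and the grey band is the annotated gene. H3K27ac at −1436 bp was 101 with vehicle and 159 with XY018, and at +20096 bp it was 53 and 17.

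The strongest distal SREBP2 region of all 10 windows was the one at −1384 of PFKFB3, at 49 vehicle and 43 XY018 fragments (0.743, 0.481 to 1.14), and RORγ there had 38 and 21 (0.611, 0.341 to 1.07). The intronic region at +12480 had 45 and 38 SREBP2 fragments and 23 and 14 of RORγ. At +1157 RORγ had 32 and 23 fragments. The SREBP2 ratios at −1384 and +12480 and the RORγ ratios at all of these PFKFB3 sites were below 1, with intervals that spanned 1. At +1157 overlapping SREBP2 regions had 39 vehicle and 25 XY018 fragments, for which no ratio was computed.

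Downstream of SLC2A1, at +41756, lay a region in which SREBP2 had 46 vehicle and 44 XY018 fragments (0.81, 0.523 to 1.25) and RORγ had 56 in each library, its highest distal level in these windows. H3K27ac was low there, with 11 and 15 fragments. At +33991, by contrast, H3K27ac had 74 and 77 fragments, and SREBP2 had a region of 23 fragments with vehicle and none with XY018. RORγ was listed there with XY018 alone, at 9 fragments. H3K27ac over the SLC2A1 window was kept in 25 of 26 regions, and in 23 one-to-one pairs the ratio was above 1 in 18 and at least 1.5 in 6, with a median of 1.34 beside 1.1 for all H3K27ac pairs. None of the SLC2A1 pairs was lower by 1.5 times. Over all H3K27ac pairs 39502 of 61672 ratios were above 1, 15.0% were at least 1.5 and 5.52% were lower by that factor.

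**Figure D5:**
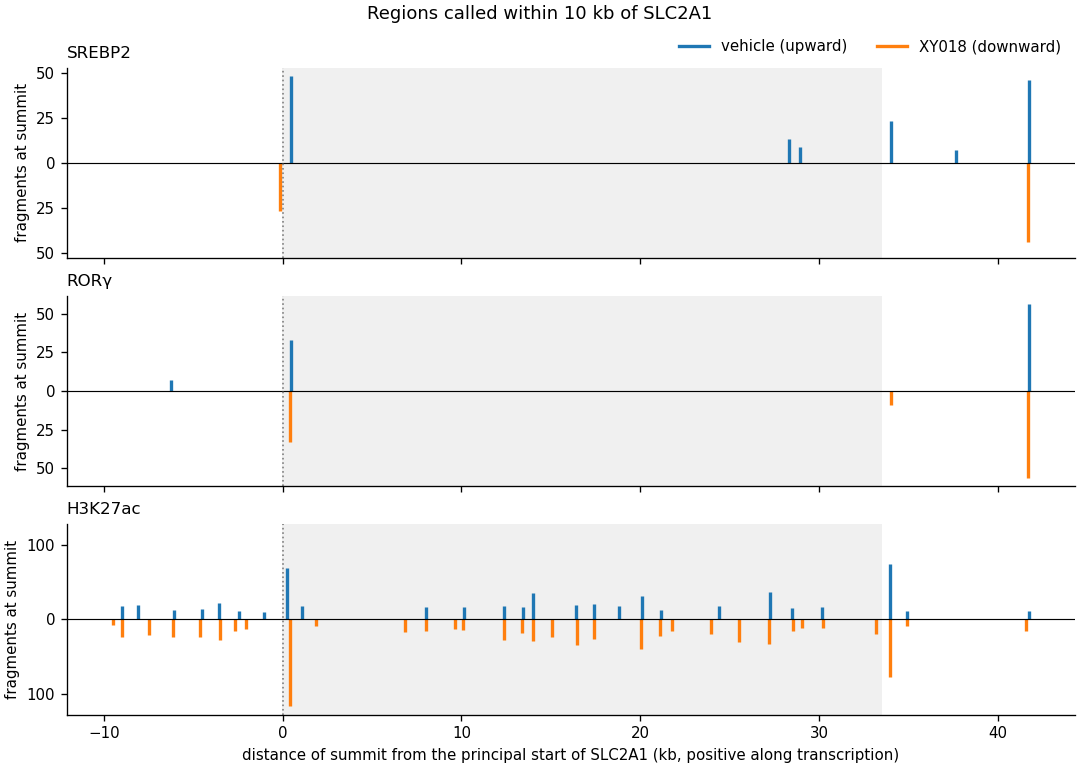
Fragments at the summit of each region within 10 kb of SLC2A1, by distance from the principal start (x axis, kb, positive along transcription); vehicle is drawn upward and XY018 downward, and the grey band is the annotated gene. At +41756 bp SREBP2 stood at 46 and 44 fragments, and its region at +34030 bp was listed with vehicle only.

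PFKP carried SREBP2 along its body. Of its 25 vehicle regions 13 were kept. In the 13 pairs every ratio was below 1, as were 43494 of 45446 over all SREBP2 pairs. The PFKP ratios ran from 0.322 at +36378, where fragments went from 21 to 8, to 0.923 at +8755, with a median of 0.535. In 9 of the 13 pairs SREBP2 was lower by at least 1.5 times. Over all 10 windows 25 of 42 one-to-one SREBP2 pairs were, and 62.9% of all SREBP2 pairs. RORγ at PFKP was called in 13 regions with vehicle and 10 with XY018. In its 7 pairs 5 ratios were above 1, beside 31039 of 57518 over all RORγ pairs.

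Several windows reached the promoters of neighbouring genes, which were counted apart. Beyond ALDOA, in the promoter of PPP4C, SREBP2 had 49 vehicle and 33 XY018 fragments (0.57, 0.355 to 0.904), RORγ 14 and 16, and H3K27ac 201 and 182. Beyond PKM, in the promoter of GRAMD2A, SREBP2 had 35 and 21 (0.508, 0.281 to 0.897), RORγ 26 and 25, and H3K27ac 48 and 68. At both neighbours SREBP2 was thus lower with XY018 while RORγ stayed within its counting error. Over all regions 62.9% of SREBP2 pairs were lower by at least 1.5 times, with a median ratio of 0.608. Both SREBP2 intervals contained that median. TACR2 beyond HK1, PITRM1 beyond PFKP, and PGAM4 and TAF9B in the PGK1 window had SREBP2 regions of 10 to 20 fragments with vehicle. Beside GAPDH, the H3K27ac region at the promoter of IFFO1 overlapped SREBP2 regions of 39 (vehicle) and 33 (XY018) fragments, and RORγ regions of 32 and 21. The H3K27ac region at TLCD3B, beside ALDOA, overlapped an SREBP2 region of 19 fragments with vehicle and none with XY018, and those at NCAPD2 overlapped neither factor. The PGK1 window also crossed ATP7A, since readthrough transcripts extend the annotated gene to 219 kb, and SREBP2 was called there in 9 vehicle regions and 1 XY018 region.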

How the data were processed

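ChIP-seq of HCC70 cells gave 1 library for each of 3 antibodies and 2 treatments, grouped by the sample labels. The study's methods name BWA for alignment to hg19, removal of duplicate tags, and MACS2 2.1.0 for peak calling. The submitters' processing notes name Bowtie2 in place of BWA. The authors deposited 1 peak list per library, with a fold enrichment (summit pileup plus 1 over local background plus 1), −log10 p and −log10 q values and other columns, the summit offset among them. The deposited display score was not used. The H3K27ac lists hold part of longer call sets, by a rule not given in the sources used here.

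The fold and −log10 p were solved, with the Poisson tail that MACS uses, for the whole number of fragments at the summit (tolerance 5% of the step, smallest background 0.6). Of the regions in a list, 98.7% to 100.0% came out whole, and the others were left out of levels. The most common local background served as genome background, and divided by the smallest region width (185 and 205 bp for SREBP2 with vehicle and XY018) it gave tags per kb. The inversion was tested on simulated data. At each promoter the overlapping pair with the highest summed fragments was compared. The summits of a pair could lie apart, also at SREBP2 of HK1 (+148 and −332) and H3K27ac of PFKP (+725 and +1582). Genes came from GENCODE 44 lifted to GRCh37. Ratios at least 1.5 times apart were counted. Python 3.11.15, numpy 2.4.6, pandas 2.3.3 and scipy 1.17.1 were used. Intervals cover counting error only. All 10 genes were named, with the 2 lowest and 2 highest of the other pathway genes, promoters of neighbours, and the 3 strongest distal regions per antibody. The summit sequences and the regions described within PFKFB3, SLC2A1, HK2, PKM and PFKP were chosen after their values were seen. Alternatives covered q limits, windows, overlap and scaling. The genes and lists were chosen with earlier results of these data known. The endothelial marker PECAM1 was not analysed here.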

Additional observations from a re-analysis of the deposited data

How the results depend on the processing

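Of 98 alternative values (counts, kept shares and medians), 85 stayed within set limits, 13 moved and 0 changed direction as a called value. Of 165 for single genes, 155 stayed, 10 moved and 0 changed direction in that sense. A value counted as staying could still cross 1 and the 1.5-fold limit, as SREBP2 at PKM did (0.914 to 1.55 by deposited fold enrichment). With the principal start only, RORγ at HK2 moved from 1.22 to 0.402. With q at most 1e-05, SREBP2 regions numbered 50 with vehicle and 29 with XY018, and RORγ regions 28 and 31; with q at most 0.01, RORγ had 50 with vehicle. The kept share with vehicle regions at q at most 1e-05 was 76.0% for SREBP2, 92.9% for RORγ and 80.5% for H3K27ac. It was 56.0% for RORγ with q at most 0.01 in both lists, 63.6% for SREBP2 with lists of equal length, and 46.3% for H3K27ac with summits within 100 bp. Divided by the median of all promoters, the median ratio was 1.15 for SREBP2 and 0.928 for H3K27ac, so relative to other promoters both directions turned. By deposited fold enrichment, the H3K27ac ratio was 0.814 at PFKP, 0.708 at PFKFB3 and 1.53 at ALDOA, and the SREBP2 ratio 1.55 at PKM. The cause was not tested. A PGK1 window from its principal transcript, chosen after seeing the data, gave 81 SREBP2 regions with vehicle and 53.1% kept. Depth limits levels near 4 fragments. No paired analysis was possible because each group held 1 library.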
